A study of Homo sapiens with 12 samples.

Results

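The genes described here, apart from GYPE, encode proteins of the red cell surface that carry blood group antigens. The set holds the glycophorins GYPB, GYPC and GYPE, the Rh proteins RHD and RHCE with their partner RHAG, the Kell protein KEL with its partner XK, and ERMAP, which carries the Scianna antigens. GYPE is included as a glycophorin, although its protein has been hard to find on red cells. The genes were chosen by gene name, each had 1 row in the table of read counts, and they are 9 of its 58735 genes. RNA was sequenced from K562, an established line of human leukemia cells in which the BCR-ABL1 fusion kinase is active and which can be driven towards the red cell lineage. Cultures first received nilotinib at 0.1 μM, which inhibits that kinase, or its solvent DMSO, and hemin, the oxidized form of heme, was added at 50 μM for 24 h or was not added (0 h). Without hemin the groups are called mock DMSO and mock nilotinib and with it hemin DMSO and hemin nilotinib, 4 groups in all, and each has 3 biological replicates, which makes 12 libraries. All groups are the same cell line, so the spread between replicates is that of cultures. The study's methods can be read as collecting the mock libraries when hemin was added and the hemin libraries 24 h later, so hemin and the longer time in culture cannot be told apart. On that reading hemin nilotinib cells also had nilotinib for longer than mock nilotinib cells.

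Glycophorins are sialic acid-rich membrane proteins with a large share of their mass in sugar chains outside the cell. The Rh proteins have many membrane-spanning segments and reach the surface only when RHAG is made, and the complex is tied to the membrane skeleton through ankyrin. KEL is an endopeptidase that cleaves big endothelins and is held to XK, a membrane protein of the scramblase family, by a disulfide bond. ERMAP belongs to the butyrophilin group of the immunoglobulin superfamily. In the marrow these genes are turned on at different steps of red cell maturation, and GATA1 and KLF1 are transcription factors of that lineage, which bind sites read as GATA and CACCC.

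Total counts ran from 33457078 to 50506990 per library, and at these depths 3 counts correspond to 0.054 to 0.0957 reads in 1000000 counted (CPM), far below any value of the 9 genes. Log2 levels of replicates correlated across genes at 0.969 to 0.992. CPM here are on the scale of the fit, with library totals corrected for composition by TMM. All 8 erythroid markers used to check the cell type (GATA1, KLF1, ALAS2, EPOR, TFRC, HBG1, HBZ and AHSP) were above 3 counts in every group, and their summed level was 1179 to 2128 CPM in mock DMSO, 10810 to 13127 CPM in mock nilotinib, 1033 to 1277 CPM in hemin DMSO and 8816 to 17549 CPM in hemin nilotinib. In mock nilotinib ALAS2, HBZ, TFRC and HBG1 made up most of it, with means of 2999, 2912, 2773 and 1639 CPM. Nilotinib without hemin raised 7 of the 8, beside 20.7% of all genes tested. GATA1, at means of 296 CPM in mock DMSO and 376 CPM in mock nilotinib, did not pass (edgeR's quasi-likelihood test, adjusted p = 0.0572). The summed level of 8 megakaryocyte markers was 40.1 to 66.0, 26.6 to 37.1, 34.8 to 74.9 and 15.4 to 25.0 CPM in the same order of groups, of which ITGA2B made up 34.7 to 59.5, 11.8 to 19.1, 30.8 to 69.6 and 7.24 to 13.7 CPM, with GP1BB and PF4 at 3 counts or fewer in every group. Under nilotinib with hemin ITGB3 and GP1BA were higher and ITGA2B lower. The summed level of 8 myeloid markers was 80.1 to 87.1, 15.5 to 18.8, 64.2 to 82.9 and 8.71 to 12.2 CPM. SPI1 made up 72.7 to 78.7, 14.1 to 17.2, 54.4 to 64.5 and 7.62 to 9.98 CPM of it. Hemin without nilotinib raised 2 of the 6 myeloid markers tested and lowered 2. Mean CD14 was 0.50 CPM in mock DMSO and 9.40 CPM in hemin DMSO, and mean CSF1R 0.20 and 1.70 CPM. In the other direction, mean ITGAM was 5.52 CPM in mock DMSO and 3.12 CPM in hemin DMSO, and mean SPI1 74.9 and 59.8 CPM. For 6 lymphoid markers the summed level stayed at or under 27.1 CPM. Of the 8 erythroid markers, hemin without nilotinib lowered 4 and raised 2, beside 27.8% and 25.7% of all genes tested. Mean KLF1 was 284 CPM in mock DMSO and 24.0 CPM in hemin DMSO, and mean HBZ 79.8 and 185 CPM. In hemin nilotinib replicates 1, 2 and 3, TFRC was at 2845, 519 and 429 CPM and HBZ at 8630, 5236 and 3215 CPM. The part of these marker levels in the results below was not tested, and in bulk RNA fewer cells of a type and less RNA per cell cannot be told apart.

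The stretches before the RNA starts are shown for 6 of the genes, because RHD and RHCE, and likewise GYPB and GYPE, arose by duplication and their counts are compared below, and because KEL and RHAG had the largest and the smallest difference under nilotinib with hemin. RefSeq promoter sequences (GRCh38.p14) were on hand for 8 of the 9 genes. The 250 bases before each start used were searched on both strands for a GATA hexamer, printed in capitals. It reads AGATAA or AGATAG when it opens with A, and TGATAA or TGATAG when it opens with T. Such a hexamer was in 22.3% of 35114 promoters of the same length, and the letters CACCC, not capitalised, were in 54.7%. The windows lie at chr1:25272259-25272508 on the plus strand for RHD and, all on the minus strand, at chr1:25420826-25421075 for RHCE, chr4:144019346-144019595 for GYPB, chr4:143905560-143905809 for GYPE, chr7:142962364-142962613 for KEL and chr6:49636840-49637089 for RHAG.
RHD: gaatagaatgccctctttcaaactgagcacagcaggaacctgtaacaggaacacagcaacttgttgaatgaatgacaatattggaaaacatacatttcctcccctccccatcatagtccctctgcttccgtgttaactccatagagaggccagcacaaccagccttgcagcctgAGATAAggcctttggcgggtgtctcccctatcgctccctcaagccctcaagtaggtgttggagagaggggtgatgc
RHCE: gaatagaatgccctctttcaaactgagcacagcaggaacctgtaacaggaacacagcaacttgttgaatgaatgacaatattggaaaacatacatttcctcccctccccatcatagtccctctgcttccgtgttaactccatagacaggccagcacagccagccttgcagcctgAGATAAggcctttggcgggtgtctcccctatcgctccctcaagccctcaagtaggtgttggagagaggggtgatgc
GYPB: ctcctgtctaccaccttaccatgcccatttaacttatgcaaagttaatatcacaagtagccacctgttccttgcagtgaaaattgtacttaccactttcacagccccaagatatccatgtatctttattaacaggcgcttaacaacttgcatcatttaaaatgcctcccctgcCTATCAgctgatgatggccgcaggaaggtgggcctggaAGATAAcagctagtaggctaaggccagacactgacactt
GYPE: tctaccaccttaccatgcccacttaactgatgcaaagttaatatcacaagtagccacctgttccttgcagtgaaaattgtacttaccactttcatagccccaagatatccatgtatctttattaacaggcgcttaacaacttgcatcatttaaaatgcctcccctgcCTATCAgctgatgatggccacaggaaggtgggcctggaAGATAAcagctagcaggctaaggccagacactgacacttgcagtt
KEL: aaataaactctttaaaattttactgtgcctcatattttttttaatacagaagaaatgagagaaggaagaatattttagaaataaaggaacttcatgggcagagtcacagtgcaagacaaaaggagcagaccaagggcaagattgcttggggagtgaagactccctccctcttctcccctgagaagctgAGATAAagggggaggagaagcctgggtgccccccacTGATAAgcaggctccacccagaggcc
RHAG: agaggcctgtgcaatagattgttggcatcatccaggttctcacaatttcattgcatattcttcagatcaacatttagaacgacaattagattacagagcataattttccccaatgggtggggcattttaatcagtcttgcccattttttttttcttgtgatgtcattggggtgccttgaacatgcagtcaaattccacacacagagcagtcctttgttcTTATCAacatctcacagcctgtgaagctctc
For RHD, RHCE, GYPB and GYPE the start and the offset used were those with the most identical bases within the pair. The identities are thus the highest found, and any other starts of these genes are not shown. The RHD and RHCE windows were identical at 248 of 250 bases (99.2%), with G146C and A158G as the substitutions. These are written as the RHD base, the position from the 5′ end of its window and the RHCE base. The GYPB and GYPE windows, set 6 bases apart, matched at 239 of 244 bases (98.0%), with T28C, T35G, C101T, G193A and T225C counted from the 5′ end of the GYPB window. Each of RHD, RHCE, RHAG and GYPC had 1 GATA hexamer in its window, and GYPB, GYPE and KEL had 2. ERMAP has 2 starts in the table, with 0 hexamers before the first and 2 before the second. The letters CACCC were found in the windows of GYPC, RHD, RHCE, RHAG, KEL and both ERMAP starts, and not in those of GYPB and GYPE. These are matches of letters, and binding was not measured.

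In GENCODE 29 (GRCh38), RHD lies at chr1:25272393-25330445 on the plus strand and RHCE at chr1:25362249-25430192 on the minus strand, ERMAP at chr1:42817088-42844993 (plus), GYPC at chr2:126655933-126696670 (plus), GYPE at chr4:143870867-143905563 (minus), GYPB at chr4:143996104-144019345 (minus), RHAG at chr6:49605158-49636884 (minus), KEL at chr7:142941114-142962681 (minus) and XK at chrX:37685756-37732130 (plus). These spans take in all annotated transcripts, so a RefSeq start can lie inside them. Of the 150-base words in RHD transcripts, 1.41% also occur in RHCE, and 1.80% of those of RHCE occur in RHD, so counts split between the pair are uncertain to a degree the files do not show. For GYPB 0.0385% of such words also occur in 1 gene that is not among the 9, and for the others the share was 0. On the opposite strand, other genes (SVBP and AL512353.1) cover 9.40% of the exon bases of ERMAP, TMEM50A 4.64% of those of RHCE and RSRP1 1.42% of those of RHD, and whether the counting used strand is not given in the sources used here.

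Nilotinib raised all 9 genes, with and without hemin. With hemin, the rise ran from 21.8-fold for KEL to 1.96-fold for RHAG, and without hemin from 10.5-fold for KEL to 2.03-fold for GYPC. Hemin alone lowered 7 of the 9, most of all ERMAP, though the call of GYPB was lost in 7 of 14 alternatives, and RHAG passed as higher, a call lost in 9 of 14. When nilotinib was present, hemin changed none of them past the threshold, in a comparison where only 3.52% of all genes were called higher and 2.28% lower. The median log2 difference over the 9 genes was 3.53 for nilotinib with hemin and 2.09 without, beside medians of 0.02 and 0.00 over all 20821 genes tested. In the first comparison 9 of 9 were called higher, beside 32.4% of all genes tested, and in the second 9 of 9 beside 20.7% (edgeR's quasi-likelihood test, Benjamini-Hochberg adjusted p under 0.05). No library of one group overlapped with a library of the other for any of the 9 genes in either comparison, which was so for 31.5% of genes in the upward and 32% in the downward direction with hemin, and for 29.8% and 31.1% without. The study itself names GYPC as induced in these samples, so its direction here is not independent evidence. The same holds for the markers ALAS2 and EPOR above and for SLC4A1 below, which the study also names.

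**Figure D1:**
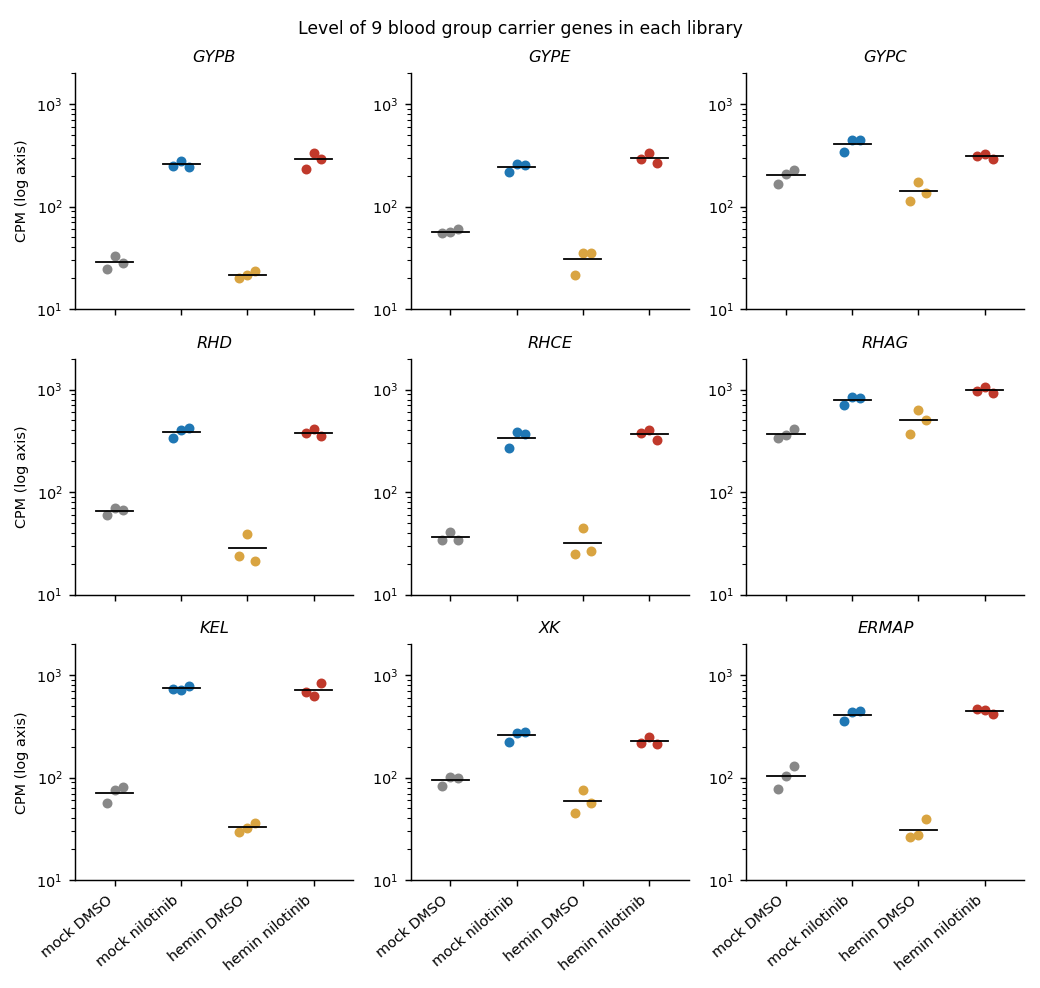
Level of each of the 9 genes in the 12 libraries, in CPM on a log axis. Points are libraries (mock DMSO grey, mock nilotinib blue, hemin DMSO yellow, hemin nilotinib red) and lines are the means of 3. Both nilotinib groups lie above both DMSO groups for every gene, and for RHAG the gap is smallest, with hemin DMSO at 370 to 631 CPM against 713 to 851 CPM in mock nilotinib.

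Among the glycophorins, GYPB, which carries the S and s antigens, stood at 24.6, 32.7 and 28.4 CPM in mock DMSO and at 20.0, 21.5 and 23.5 CPM in hemin DMSO. In mock nilotinib it stood at 250, 281 and 245 CPM and in hemin nilotinib at 235, 337 and 293 CPM. The nilotinib libraries were thus several times above every DMSO library, and the 2 nilotinib groups overlapped. The log2 difference was 3.73 (SE 0.16) with hemin and 3.18 (SE 0.16) without, at adjusted p of 7.56e-11 and 6.65e-10 in edgeR's quasi-likelihood test. GYPE is a close relative of GYPB whose protein has been hard to find on red cells. Its RNA stood at 54.9, 55.9 and 60.4 CPM in mock DMSO, at 218, 258 and 254 CPM in mock nilotinib, at 21.7, 35.5 and 34.9 CPM in hemin DMSO and at 289, 337 and 266 CPM in hemin nilotinib. None of these 4 groups overlapped for GYPE, and hemin DMSO was lowest and hemin nilotinib highest. The log2 difference under nilotinib was 3.27 (SE 0.18) with hemin and 2.09 (SE 0.17) without, with adjusted p of 5.15e-10 and 8.8e-08 in the same edgeR fit.

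GYPC is not related by sequence to the other glycophorins. It carries the Gerbich antigens and ties the membrane to its skeleton through protein 4.1 and p55. It was already at 166, 209 and 228 CPM in mock DMSO and at 114, 173 and 137 CPM in hemin DMSO, and reached 338, 442 and 443 CPM in mock nilotinib and 310, 327 and 290 CPM in hemin nilotinib. The DMSO groups overlapped with each other and the nilotinib groups did not. Its log2 difference under nilotinib was 1.13 (SE 0.17, edgeR adjusted p = 2.44e-05) with hemin and 1.02 (SE 0.17, adjusted p = 0.000141) without, and 21.7% of the genes tested had a larger difference with hemin, against 1.83% for GYPB.

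Of the Rh genes, RHD, which encodes the D antigen, was at 59.2, 70.1 and 67.6 CPM in mock DMSO and fell to 23.9, 39.3 and 21.4 CPM in hemin DMSO. It was at 337, 408 and 424 CPM in mock nilotinib and at 378, 409 and 355 CPM in hemin nilotinib. The 2 DMSO groups did not overlap, and the nilotinib groups did. RHCE, which encodes the C, c, E and e antigens, was at 34.0, 41.0 and 33.9 CPM in mock DMSO, 24.7, 45.1 and 26.5 CPM in hemin DMSO, 267, 382 and 368 CPM in mock nilotinib and 382, 407 and 321 CPM in hemin nilotinib. Here the DMSO groups overlapped, since replicate 2 of hemin DMSO was above every mock DMSO library. The log2 difference under nilotinib with hemin was 3.76 (SE 0.21) for RHD and 3.53 (SE 0.22) for RHCE, at edgeR adjusted p of 4.96e-10 and 2.29e-09. Without hemin it was 2.57 (SE 0.19) for RHD and 3.22 (SE 0.22) for RHCE, at edgeR adjusted p of 3.72e-08 and 1.21e-08.

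RHAG, the Rh-associated glycoprotein without which the Rh proteins do not reach the membrane, had the highest level per kilobase of the 9 genes in every group. It was at 338, 362 and 417 CPM in mock DMSO and at 370, 631 and 503 CPM in hemin DMSO, so these groups overlapped. In mock nilotinib it was at 713, 851 and 833 CPM and in hemin nilotinib at 967, 1061 and 923 CPM, and these groups did not overlap. Its log2 difference under nilotinib was 0.97 (SE 0.17, edgeR adjusted p = 0.00014) with hemin and 1.10 (SE 0.17, adjusted p = 9.27e-05) without.

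KEL rose more than any other of the 9 genes in both comparisons. It was at 56.5, 76.5 and 80.9 CPM in mock DMSO, 29.4, 32.5 and 36.4 CPM in hemin DMSO, 737, 722 and 792 CPM in mock nilotinib and 683, 625 and 835 CPM in hemin nilotinib. The log2 difference was 4.45 (SE 0.18, edgeR adjusted p = 3.23e-11) with hemin and 3.40 (SE 0.17, adjusted p = 6.92e-10) without, and 1.05% and 1.08% of the genes tested had a larger one. XK, the partner of KEL on the red cell, was at 82.8, 101 and 98.2 CPM in mock DMSO, 45.4, 75.1 and 56.6 CPM in hemin DMSO, 223, 273 and 281 CPM in mock nilotinib and 218, 250 and 211 CPM in hemin nilotinib. The nilotinib groups of XK lay above every DMSO library but rose less than those of KEL, with a log2 difference of 1.94 (SE 0.17, edgeR adjusted p = 8.65e-08) with hemin and 1.46 (SE 0.17, adjusted p = 3.8e-06) without. ERMAP was at 77.4, 105 and 130 CPM in mock DMSO and at 26.2, 27.5 and 39.2 CPM in hemin DMSO. It was at 354, 432 and 448 CPM in mock nilotinib and at 463, 456 and 415 CPM in hemin nilotinib. Under nilotinib its log2 difference was 3.84 (SE 0.21, edgeR adjusted p = 4.49e-10) with hemin and 1.98 (SE 0.19, adjusted p = 5.48e-07) without, and the gap between these comparisons was the largest of the 9 genes.

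**Figure D2:**
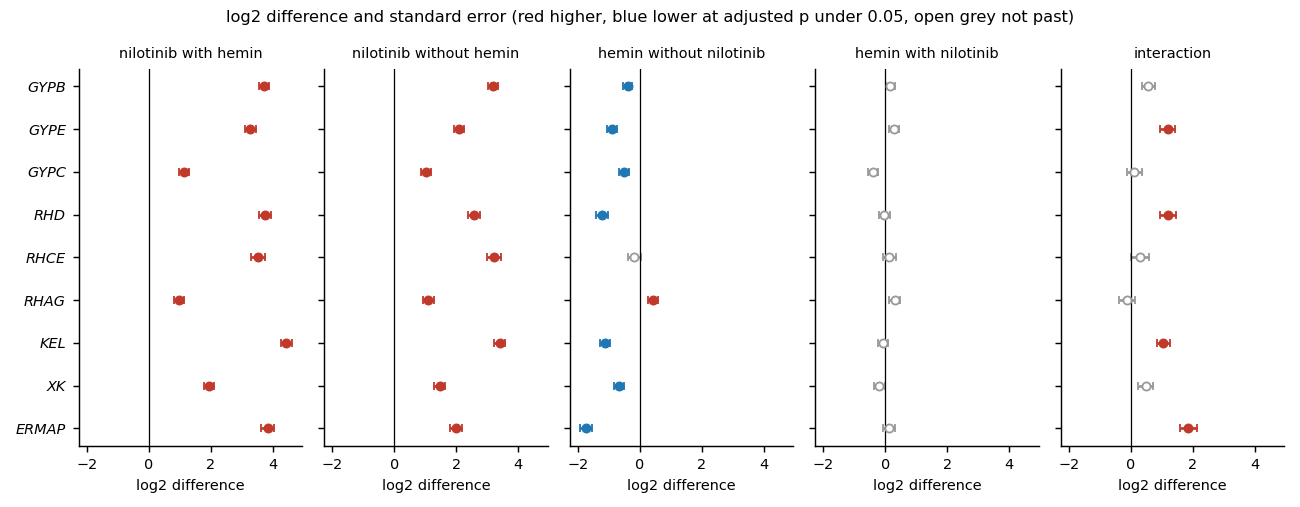
log2 difference of each gene (points, with the standard error as bars) in the 4 comparisons and in the interaction, which is the difference under nilotinib with hemin minus that without. Red is higher and blue is lower at an adjusted p under 0.05, and open grey is not past the threshold. Nilotinib moved all 9 genes up, hemin without nilotinib moved 7 down and RHAG up (a call lost in 9 of 14 alternatives), and hemin with nilotinib moved none past the threshold.

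Hemin without nilotinib lowered ERMAP, RHD, KEL, GYPE, XK, GYPC and GYPB. That is 7 of 9 called lower, beside 27.8% of all genes tested, and 1 of 9 called higher beside 25.7%. ERMAP fell by 1.75 (SE 0.19) on the log2 scale, RHD by 1.22 (SE 0.19) and KEL by 1.12 (SE 0.16), with edgeR adjusted p of 1.98e-06, 5.46e-05 and 2.58e-05. GYPE fell by 0.89 (SE 0.17) and XK by 0.67 (SE 0.17), with edgeR adjusted p of 0.000311 and 0.00295. GYPC fell by 0.51 (SE 0.17) and GYPB by 0.40 (SE 0.15), with edgeR adjusted p of 0.0165 and 0.0345. RHCE, with a log2 difference of -0.18 (SE 0.20), did not pass (edgeR adjusted p = 0.482). Whether RHD and RHCE differed here was tested only through the share of RHD in the pair. The median over the 9 genes was -0.67, beside -0.05 over all genes. In 6 of the 9 genes the DMSO groups did not overlap, and all 6 were lower with hemin, as were 32.9% of all genes tested without overlap.

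RHAG was the gene called higher under hemin, by 0.43 (SE 0.17, edgeR adjusted p = 0.0462), and its groups overlapped. This call was lost without mock DMSO replicates 1, 2 or 3 (0.29, 0.39 and 0.47) and without hemin DMSO replicates 2 or 3 (0.23 and 0.44). GYPB missed the threshold without mock DMSO replicate 2 (-0.30) and without hemin DMSO replicates 1 or 2 (-0.33 and -0.39), and GYPC without mock DMSO replicate 3 (-0.46) and without hemin DMSO replicates 1 or 3 (-0.37 and -0.48). When hemin DMSO replicate 2 was left out, RHCE passed it and fell by 0.50 (edgeR adjusted p = 0.0248).

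With nilotinib present, hemin changed 0 of 9 genes in either direction in edgeR's quasi-likelihood test, beside 3.52% of all genes tested called higher and 2.28% called lower, so 0 of 9 is near the share of all genes. Those shares stand for 733 and 475 genes and rest on single libraries. They became 144 and 69 genes without mock nilotinib replicate 2 and 149 and 85 without mock nilotinib replicate 3. Leaving out hemin nilotinib replicate 2 gave 193 and 93 genes, and leaving out replicate 1 of that group gave 1766 and 1027. Without mock nilotinib replicate 1 the genes called higher were 475, and without hemin nilotinib replicate 3 they were 411. Of the 9 genes DESeq2 called 0 as well, and 1 of 9 had an unadjusted p under 0.05 in edgeR. That gene was GYPC, with a log2 difference of -0.40 (SE 0.17, edgeR adjusted p = 0.171). The others ran from -0.19 (SE 0.17) for XK to 0.30 (SE 0.17) for RHAG. GYPC, GYPE and RHAG had no overlap between the 2 nilotinib groups, GYPC being lower and GYPE and RHAG higher with hemin, beside 11.6% and 11.7% of all genes tested in these directions. This comparison shares its hemin nilotinib libraries with that of nilotinib with hemin, and hemin without nilotinib shares the hemin DMSO libraries with it.

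The effect of nilotinib was larger with hemin than without it for ERMAP, RHD, GYPE and KEL. The test of that difference (the interaction in the edgeR fit) gave 1.86 (SE 0.26, adjusted p = 0.00012) for ERMAP, 1.19 (SE 0.26, adjusted p = 0.0033) for RHD, 1.18 (SE 0.23, adjusted p = 0.00156) for GYPE and 1.05 (SE 0.22, adjusted p = 0.00251) for KEL on the log2 scale. These are 4 of 9 genes called higher, beside 17.1% of all genes tested, and 0 of 9 were called lower, beside 13%. The values of the other 5 were 0.55 (SE 0.21, edgeR adjusted p = 0.0563) for GYPB, 0.48 (SE 0.23) for XK, 0.30 (SE 0.29) for RHCE, 0.11 (SE 0.24) for GYPC and -0.13 (SE 0.24) for RHAG. GYPB passed the threshold without mock DMSO replicate 1 (0.72) and without hemin nilotinib replicate 1 (0.69), and XK without hemin DMSO replicate 2 (0.68). With the replicate block both passed, at 0.53 for GYPB (edgeR adjusted p = 0.0282) and 0.50 for XK (edgeR adjusted p = 0.0469). In these 4 genes hemin moved the level by at most 1.22-fold with nilotinib (GYPE) and by at least 1.86-fold without it (GYPE). KEL, for instance, averaged 750 and 714 CPM in mock and hemin nilotinib and 71.3 and 32.8 CPM in mock and hemin DMSO. Since nilotinib may have been present for longer in hemin nilotinib, hemin and the length of exposure cannot be told apart in this difference.

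The share of each duplicated pair taken by 1 of its genes was compared over libraries. RHD took 64.4% ± 1.90 (SD, n = 3) of the counts of RHD plus RHCE in mock DMSO, 53.7% ± 2.06 in mock nilotinib, 46.8% ± 2.31 in hemin DMSO and 50.8% ± 1.49 in hemin nilotinib. The mock DMSO libraries, at 63.5%, 63.1% and 66.6%, lay above all others. In an exact two-sided permutation test, p was 0.1, the smallest that 3 against 3 libraries allow, for nilotinib with hemin, nilotinib without hemin and hemin without nilotinib, and 0.2 for hemin with nilotinib. GYPB took 33.3% ± 3.18 (SD, n = 3) of the counts of GYPB plus GYPE in mock DMSO, 51.6% ± 2.18 in mock nilotinib, 42.0% ± 5.30 in hemin DMSO and 49.1% ± 3.88 in hemin nilotinib. The mock DMSO libraries did not overlap with those of mock nilotinib or hemin DMSO (exact permutation p = 0.1 for each), whereas nilotinib with hemin (exact p = 0.2) and hemin with nilotinib (exact p = 0.5) overlapped. Adjusted over the 8 tests, the exact p were 0.16, 0.229 or 0.5, so none could pass the threshold at this number of libraries. Because the pair of Rh genes shares sequence, their share rests on how the counting split such reads.

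**Figure D3:**
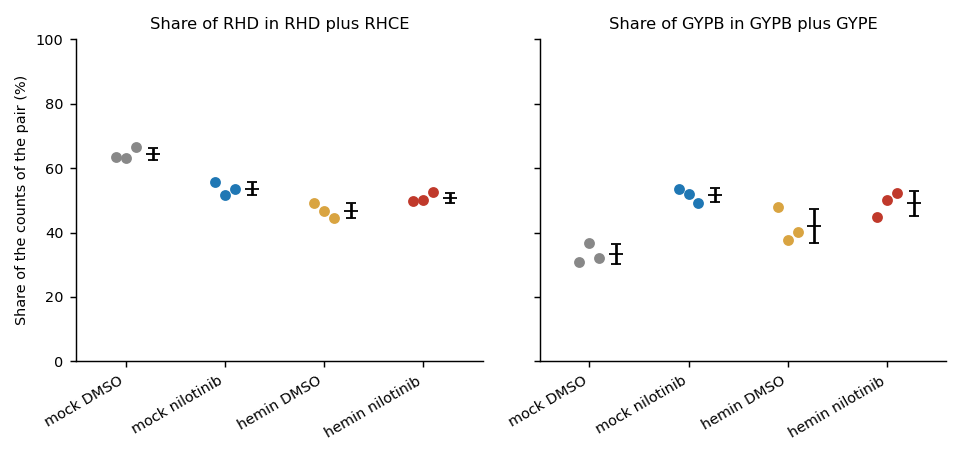
Share of RHD in the counts of RHD plus RHCE (left) and of GYPB in those of GYPB plus GYPE (right), in percent, for each library (points) with the mean and SD of 3 (bars). RHD was at 63.1% to 66.6% in mock DMSO and lower in every other library, while GYPB was at 31.0% to 36.9% in mock DMSO and higher in every other library.

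Levels of different genes were compared per kilobase of gene length. This length takes in all annotated exons of a gene, over 1 transcript for XK and 17 for GYPB. Which transcripts were expressed was not examined, so levels of 1 gene against another depend on that length. On this scale (CPM per kb) the 9 genes together summed to 324 ± 35.8 (SD, n = 3) in mock DMSO, 1230 ± 115 in mock nilotinib, 297 ± 69.8 in hemin DMSO and 1316 ± 75.9 in hemin nilotinib. RHAG made up 42.8% ± 1.75 of this sum in mock DMSO and 62.5% ± 1.69 in hemin DMSO, but 24.1% ± 0.192 in mock nilotinib and 27.8% ± 0.649 in hemin nilotinib. KEL went the other way, from 5.51% ± 0.463 in mock DMSO and 2.86% ± 0.547 in hemin DMSO to 15.4% ± 1.46 in mock nilotinib and 13.7% ± 2.68 in hemin nilotinib. The ratio of RHAG to RHD plus RHCE was 3.95, 3.54 and 4.52 in the mock DMSO libraries, 8.80 ± 1.71 (SD, n = 3) in hemin DMSO, 1.16 ± 0.0775 in mock nilotinib and 1.37 ± 0.0558 in hemin nilotinib, so partner and antigen RNAs came nearer to parity with nilotinib. The ratio of KEL to XK was 0.988 ± 0.093 in mock DMSO and 0.752 ± 0.16 in hemin DMSO, against 3.83 ± 0.446 in mock nilotinib and 4.19 ± 0.956 in hemin nilotinib. These ratios were not tested and follow from the differences already given.

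**Figure D4:**
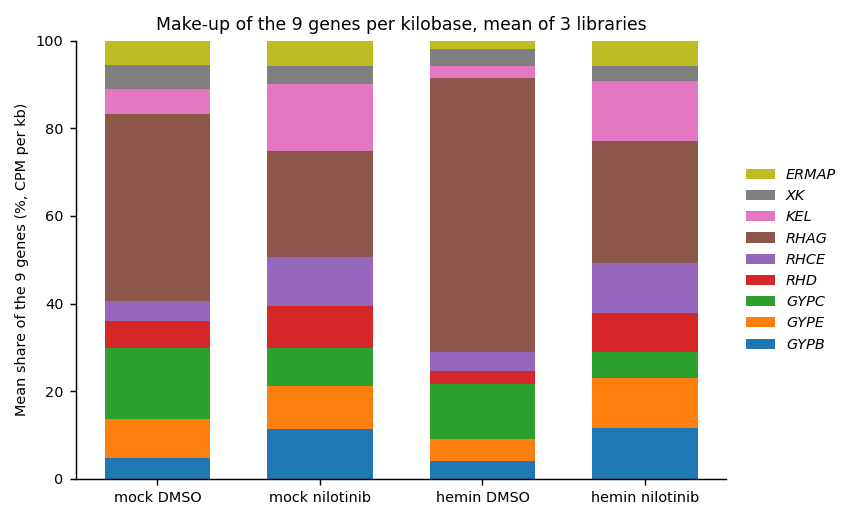
Mean share of each gene in the sum of the 9 genes, in percent of CPM per kilobase, for the 4 groups (stacked bars, mean of 3 libraries). RHAG takes 42.8% and 62.5% in the DMSO groups and 24.1% and 27.8% in the nilotinib groups, where KEL, RHCE and GYPB take larger shares than with DMSO.

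Genes that work beside these 9 were followed as lists. Of 11 membrane partners, 10 were tested and all 10 rose under nilotinib with hemin (median log2 difference 2.89), beside 32.4% of all genes tested. EPB42, which encodes protein 4.2, had 4.59 (SE 0.35) and SPTB, the red cell β-spectrin, 3.85 (SE 0.18), whereas CD47 had 0.35 (SE 0.14) and VPS13A, which binds XK, 0.82 (SE 0.16). Without hemin 7 of the 10 rose under nilotinib and 0 fell (median 1.73), beside 20.7% and 21.8% of all genes. Hemin without nilotinib lowered 7 and raised 1 (median -0.71), beside 27.8% and 25.7%. Hemin with nilotinib changed 0 of 10 in edgeR, where few genes of any kind were called (3.52% higher and 2.28% lower). The gene raised by hemin alone was EPB42, at 0.97 (SE 0.32), and the count raised was 0 to 1 when single libraries were left out. In the interaction 4 of the 10 were higher and 0 lower, beside 17.1% and 13% of all genes.

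Of 26 other genes that carry blood group antigens, 25 were tested. Under nilotinib with hemin 17 rose and 6 fell (median 1.48), beside 32.4% and 31.8% of all genes, and without hemin 16 rose and 4 fell (median 0.65), beside 20.7% and 21.8%. The falling genes were thus no more frequent than among all genes. SLC4A1, the band 3 anion exchanger that carries the Diego antigens, went from 3.83 to 6.80 CPM in hemin DMSO to 4725 to 5211 CPM in hemin nilotinib, a log2 difference of 9.78 (SE 0.57). ART4, which carries the Dombrock antigens, had 0 to 1 counts per library in hemin DMSO and 285 to 496 counts in hemin nilotinib. CD44, which carries the Indian antigens, fell by 1.88 (SE 0.43). XG fell by 1.52 (SE 0.65, edgeR adjusted p = 0.0492). It had only 4 to 12 counts per library in hemin DMSO and 1 to 7 in hemin nilotinib, and its libraries overlapped. Hemin without nilotinib lowered 10 of the 25 and raised 1 (median -0.60), beside 27.8% and 25.7% of all genes. The gene raised was ACHE, the acetylcholinesterase of the Yt antigens, at 3.36 (SE 0.23). Nilotinib raised it without hemin, by 2.96 (SE 0.23), and with hemin it fell by 0.51 (SE 0.21) with overlapping libraries. Hemin with nilotinib raised 0 and lowered 1, beside 3.52% and 2.28% of all genes. The gene lowered was CD99, by 0.65 (SE 0.16), and the count lowered was 0 to 1 when single libraries were left out. In the interaction 8 were higher and 1, ACHE, lower, beside 17.1% and 13% of all genes.

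Among enzymes that make glycan or lipid-linked blood group antigens, the shares called under nilotinib with hemin were near those of all genes. Of 7 tested, 2 rose and 3 fell under nilotinib with hemin (median -0.51), beside 32.4% and 31.8% of all genes, GBGT1 by 2.73 (SE 0.31) and PIGG by 1.62 (SE 0.13) on the rising side, while FUT3 fell by 2.75 (SE 0.66) and GCNT2, which makes the I antigen, fell by 0.98 (SE 0.20). FUT3 had only 9 to 45 counts per library in hemin DMSO and 1 to 7 in hemin nilotinib. GBGT1 and PIGG also rose without hemin, where 0 fell, beside 20.7% and 21.8% of all genes. Hemin raised 3 and lowered 3 of the 7 without nilotinib, beside 25.7% and 27.8% of all genes. With nilotinib it raised 1 and lowered 0, beside 3.52% and 2.28%. FUT1 was the gene raised, by 1.36 (SE 0.33), and the count was 0 to 1 when single libraries were left out. Its libraries overlapped, at 43.0 to 64.2 CPM in mock nilotinib and 60.6 to 221 CPM in hemin nilotinib. In the interaction 2 were higher and 2 lower, beside 17.1% and 13% of all genes.

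Relatives of the 9 genes by family or domain (RHBG and RHCG, endothelin-converting enzymes and neprilysins, XK-related genes, butyrophilins and syndecans) were 24 genes, of which 15 passed the filter on low counts. RHBG and RHCG, the Rh glycoproteins of kidney and other epithelia, were not among them. Under nilotinib with hemin 2 rose and 8 fell (median -0.87), beside 32.4% and 31.8% of all genes. SDC2 fell by 4.15 (SE 0.43) and MME, the neprilysin of the family of KEL, by 3.61 (SE 0.44), while BTN3A2 rose by 2.05 (SE 0.21) and XKR3 by 0.67 (SE 0.20). Without hemin 1 rose and 5 fell (median -0.45), beside 20.7% and 21.8%. Hemin without nilotinib raised 3 and lowered 3 (median 0.15), beside 25.7% and 27.8%. Hemin with nilotinib changed 0 of 15 in edgeR, beside 3.52% of all genes called higher and 2.28% called lower. In the interaction 2 were higher and 1 lower, beside 17.1% and 13% of all genes.

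Across the 12 libraries, log2 levels of the 9 genes correlated with each other at 0.754 to 0.991 over the 36 pairs (median 0.967, Pearson), as a description in which the split between nilotinib and DMSO is shared by all points. Among 8921 protein-coding genes with a mean of at least 10 CPM, those most like each of the 9 were C17orf99 for KEL (0.998), PPOX for RHD (0.997), TNS1 for ERMAP (0.997), DUSP21 for GYPB (0.996), CPQ for XK (0.994), SLC30A10 for GYPE (0.993), SLC25A39 for RHCE (0.992), STMP1 for GYPC (0.991) and HBG2 for RHAG (0.977). The next in rank were FN3K and PIGQ for KEL, ABCB10 and FN3K for RHD, SLFN14 and APLNR for ERMAP, SLC36A1 and APOBEC3F for GYPB, ACSS1 and ABCB10 for XK, HIST2H2BE and TXNDC16 for GYPE, PPP2R2C and LTBP1 for RHCE, KLHDC3 and SHLD1 for GYPC, and AC104389.5 and KDM4C for RHAG. HBG2 is nearly identical to HBG1, so its counts are uncertain.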

How the data were processed

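RNA-seq of 12 K562 libraries (3 biological replicates in each of 4 groups) was analysed. The authors deposited raw counts of 150-base paired-end reads per gene, made by their sequencing service. The authors also deposited FPKM, which are these counts per kilobase of gene length divided by 1 scaling factor per library. A further file of group mean FPKM was not used here. The submitters' processing notes name GRCh38.p12, DESeq and DESeq2, and the aligner, counter and strand setting are not given in the sources used here. All 58735 genes matched GENCODE 29 in start and end, and 40578 had at least 1 count.

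The counts were fitted with edgeR 4.0.16 in R 4.3.3. The filter filterByExpr (10 counts, 15 in total) left 20821 genes. A quasi-likelihood model with TMM scaling and a mean for each group was fitted to the 12 libraries together. Calls rest on two-sided p under 0.05 after Benjamini-Hochberg adjustment over these genes. The 5 contrasts were nilotinib with and without hemin, hemin without and with nilotinib, and the interaction. Shares within gene pairs were compared by exact permutation over libraries. Alternatives were DESeq2 1.42.0, limma-trend (limma 3.58.1) on log2(FPKM + 1) and log2(FPKM + 0.1), RLE or no composition factors, no filter beyond 1 count, fits to only the libraries compared, a replicate block, and leaving out single libraries. The edgeR fit was tested on simulated data. Figures and annotation used Python 3.11.15.

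Replicate numbers are those of the labels. Deviations from the group means of libraries with the same number correlated above 0.1 in all 3 pairs for nilotinib without hemin (0.159 to 0.222) and hemin with nilotinib (0.460 to 0.510), which meets the rule for pairing by number in these comparisons. The values and calls given are from the fit without the block, and the block changed no call of the 9 genes there. They ranged from -0.128 to 0.257 for nilotinib with hemin and from 0.0944 to 0.188 for hemin without nilotinib. The fit of the block to only the libraries compared was added after seeing the data.

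The 9 genes, the lists and the tests were chosen with earlier results of these data known. The text names the 9 genes, the 2 highest and 2 lowest log2 differences past the threshold of each list under nilotinib with hemin, SLC4A1, and the 3 protein-coding genes most like each of the 9 by Pearson correlation. ACHE, CD99, FUT1 and the hemin value of EPB42 were named after their values were seen. Gene length and GC content were not examined.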

Additional observations from a re-analysis of the deposited data

Results flagged for a closer look

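Nilotinib had a different effect on 4 of the 9 genes when hemin was given, by the interaction test in edgeR, with 3 libraries in each of the 4 groups. Nilotinib may also have been present for longer in these hemin libraries, and this cannot be told apart from hemin. The difference, with minus without hemin, was 1.86 for ERMAP (SE 0.26), 1.19 for RHD (SE 0.26), 1.18 for GYPE (SE 0.23) and 1.05 for KEL (SE 0.22) on the log2 scale. The effect itself was positive in both comparisons for each of these genes, at 3.84 and 1.98 for ERMAP, 3.76 and 2.57 for RHD, 3.27 and 2.09 for GYPE and 4.45 and 3.40 for KEL.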

How the results depend on the processing

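All 9 genes were called higher under nilotinib, with and without hemin, in every alternative run, and ERMAP, RHD, GYPE and KEL kept their interaction calls in every alternative run. The count of the 9 genes called higher under hemin without nilotinib went from 1 to 0 (RHAG) with limma-trend on log2(FPKM + 1), with limma-trend on log2(FPKM + 0.1), with no composition factor and with all genes that had at least 1 count, and was 0 to 1 when single libraries were left out. The fall of GYPB under hemin missed the threshold in 7 of 14 alternatives, among them DESeq2 (-0.37, adjusted p = 0.0612) and RLE scaling (-0.36), and that of GYPC in 3 of 14. Counts of the 9 genes lower under hemin were 5 to 7 with single libraries left out. Without a composition factor, the median of all genes moved by 0.18 for nilotinib with hemin, -0.24 for hemin without nilotinib and 0.21 for the interaction, and the share of calls that were higher went from 48.0% to 33.9% for hemin without nilotinib, from 60.7% to 49.2% for hemin with nilotinib and from 56.7% to 73.3% for the interaction. The interaction of RHAG was then 0.086 in place of -0.13. When single libraries were left out, it ran from -0.32 to 0.065 (above 0 without hemin DMSO replicate 2 or mock DMSO replicate 1), and that of GYPC from -0.031 (without hemin DMSO replicate 1) to 0.31. Under hemin with nilotinib, RHCE then ran from -0.021 (without mock nilotinib replicate 1) to 0.21, and RHD from -0.13 to 0.0064 (above 0 when replicate 3 of either nilotinib group was left out). None of these reversed values passed the threshold in either fit, and the cause of each change was not tested. With the replicate block over 12 libraries, the interaction was called for 6 genes in place of 4, GYPB (0.53, adjusted p = 0.0282) and XK (0.50, adjusted p = 0.0469) being added, and without a composition factor it was also 6. The block changed no call of the 9 genes in the other comparisons. With 3 libraries a group, exact tests of the pair shares could not go below 0.1, and depth did not limit the 9 genes, which had at least 652 counts in every library.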
